A study of Mus musculus with 13 samples.

Results

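The 9 genes described here are the transcription factors and surface proteins most often read as signs of a shift towards a mesenchymal state: Twist1, Snai1, Snai2, Zeb1, Zeb2, Prrx1, Cd44, Cdh2 and Cdh11. They were chosen by name, with earlier results of these data known, out of 34857 genes in the deposited tables, and all 9 were found there. Poly(A) RNA was sequenced from Neuro2a, a mouse neuroblastoma cell line, after a model of cryostorage failure. The 4 experimental libraries at passage 1 and the 3 at passage 6 came from vials frozen in 10% DMSO that lost their liquid nitrogen over 10 h, reached 4 °C within a further 24 h, spent 72 h at -80 °C and were then warmed to 37 °C. The 3 control libraries at each passage came from vials frozen in the same medium that stayed in normal cryostorage and were then plated with the same protocol. Passage 1 was sampled when the surviving cells grew again and passage 6 when they looked normal. All groups are of 1 cell line with no transgene named in the labels, and the labels do not state whether replicates came from separate vials or cultures, so that a p-value here reflects the spread of these libraries alone, possibly a technical one.

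Epithelial cells turn mesenchymal when a small set of DNA-binding repressors silences junction genes. SNAIL proteins (encoded by Snai1 and Snai2) and ZEB proteins bind the E-box, a short motif in the promoter of the E-cadherin gene Cdh1, while TWIST1 and PRRX1 act in embryonic mesenchyme and neural crest. Cdh2 encodes N-cadherin, the adhesion protein of neural tissue, Cdh11 encodes a cadherin of mesenchyme and bone-forming cells, and Cd44 encodes a receptor for hyaluronan, the matrix sugar. Neuroblastoma arises from the neural crest, which uses the same factors when its cells leave the neural tube, and human neuroblastoma cells can hold an adrenergic or a mesenchymal state.

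ZEB proteins and the miR-200 microRNAs repress one another. The family's mature sequences (RefSeq, GRCm38.p6) are shown because their seed, bases 2 to 8 from the 5′ end and here in capitals, is what pairs with Zeb1 and Zeb2 transcripts. The 5 microRNAs fall into 2 seed groups.
mmu-miR-141-3p: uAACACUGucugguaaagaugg
mmu-miR-200a-3p: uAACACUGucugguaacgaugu
mmu-miR-200b-3p: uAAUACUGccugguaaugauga
mmu-miR-200c-3p: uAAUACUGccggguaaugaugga
mmu-miR-429-3p: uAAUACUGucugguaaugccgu
The first 2 share the seed AACACUG, and the other 3 share AAUACUG, which differs by a single base. Mature microRNAs carry no poly(A) tail and were not measured in these libraries. In the gene tables, Mir200a was at most 0.173 FPKM and Mir429 at most 0.00179 FPKM in any library.

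SNAIL itself is known to bind an E-box in its own promoter in human cells. The 250 bases before the start of mouse Snai1 (RefSeq, GRCm38.p6, chr2:167537945-167538194, plus strand) are shown because they hold the only E-box found before any member, with its letters in capitals.
Snai1 promoter: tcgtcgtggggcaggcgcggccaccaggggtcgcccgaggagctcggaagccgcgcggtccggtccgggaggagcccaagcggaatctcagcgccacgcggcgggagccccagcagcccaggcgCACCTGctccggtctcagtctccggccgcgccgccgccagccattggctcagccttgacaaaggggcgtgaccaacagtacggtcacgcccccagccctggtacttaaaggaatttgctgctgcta
The motif searched was CAGGTG or its reverse complement CACCTG, and the match begins 126 bases before the start site. RefSeq windows of the same length were at hand for 5 members (Snai1, Twist1, Zeb2, Prrx1 and Cd44, 8 windows in all), and 1 of the 8 held the motif. Over all 32851 promoter windows of that length, 17.2% held it.

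Levels are given as FPKM, fragments counted per kilobase of a gene's transcript relative to all fragments of its library, which allows genes to be set side by side. Changes are log2 differences of FPKM + 1, experimental minus control, so that a fold at these low levels is smaller than the ratio of the FPKM means. A gene was tested where at least 3 libraries of a passage reached 1 FPKM, and it is called higher or lower where limma's two-sided p, adjusted by Benjamini-Hochberg over all genes tested, was under 0.05. FPKM hold no read counts, so the depth behind each value is unknown. Since RNA was taken from whole cultures, fewer cells of a type and less RNA per cell cannot be told apart.

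Only Zeb1, Zeb2 and Cdh2 passed the filter, in both passages, and Twist1, Snai1, Snai2, Prrx1, Cd44 and Cdh11 passed it in neither. None of the 3 tested members was called at passage 1, where 30.4% of all 12469 tested genes were called (11.5% higher and 18.9% lower), and none at passage 6, where 19.8% of 12458 were called (8.98% higher and 10.8% lower). The balance of all calls depended on scaling: 37.8% of those at passage 1 and 45.5% at passage 6 were higher, against 48.9% to 55.7% and 51% to 57.6% under 3 other scalings. At an unadjusted p under 0.05, 1 member stood out at passage 1 (Zeb1) and 0 at passage 6. The change between the passages passed for none of the 3, against 14.7% of 13019 genes (8.46% with the passage 6 difference higher, 6.27% lower), with Zeb1 alone under 0.05 before adjustment. Fitted without the filter, which keeps all 9, no member was called either, and the lowest adjusted p was 0.164, for Cd44 at passage 1.

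**Figure D1:**
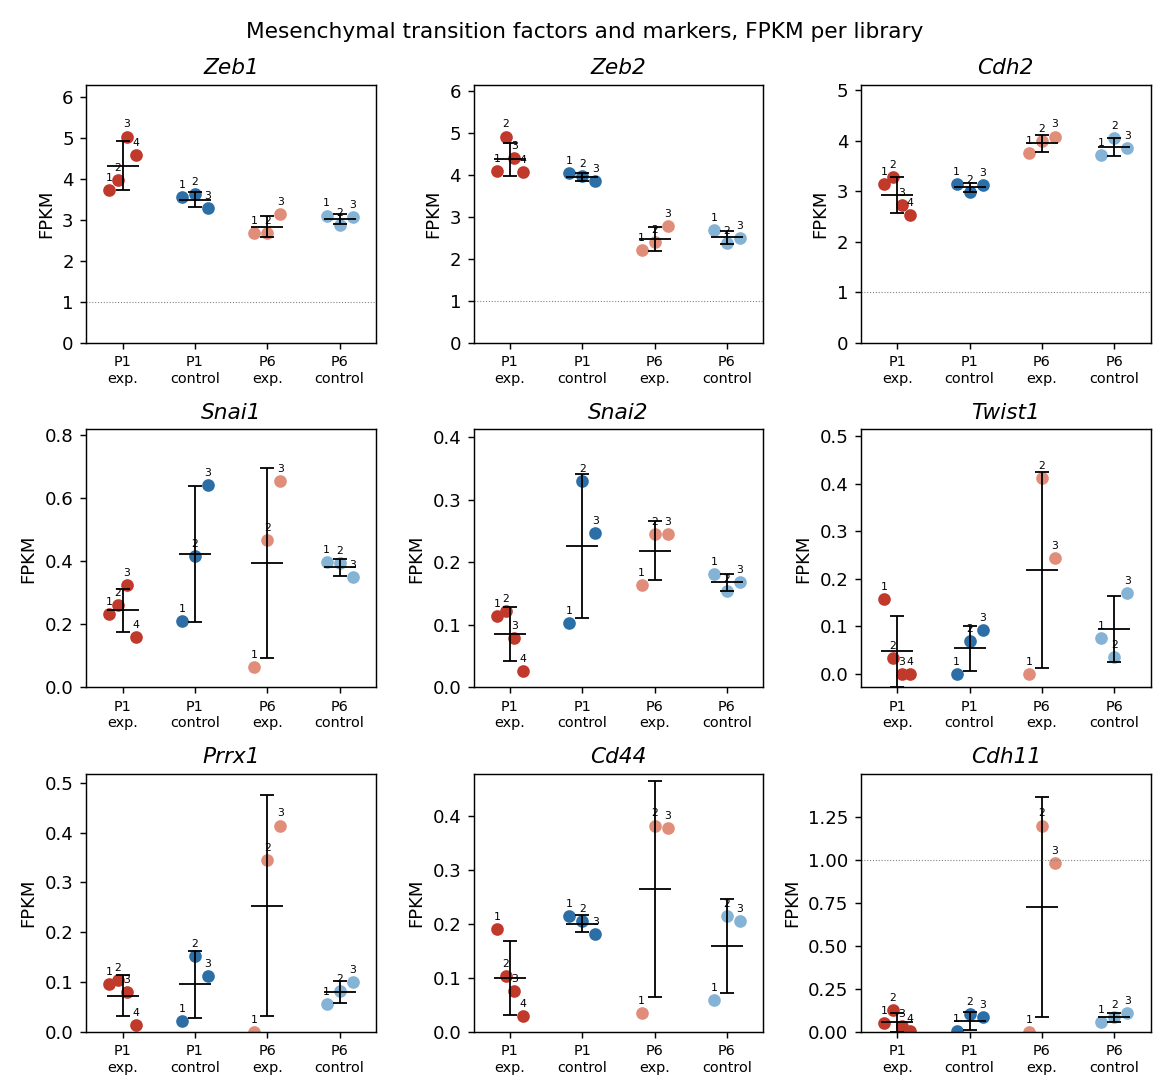
FPKM of the 9 members in each library (points, numbered by replicate) with the group mean and SD (bars), experimental left of control within passage 1 (P1) and passage 6 (P6); the dotted line marks 1 FPKM and each panel has its own scale. Zeb1, Zeb2 and Cdh2 lie between 2.22 and 5.03 FPKM in every library, while the other 6 stay below 1 FPKM except Cdh11 in experimental library 2 of passage 6.

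Zeb1 (ENSMUSG00000024238, GRCm38 chr18:5591860-5775467, plus strand) encodes a zinc-finger repressor of epithelial genes. It was at 3.72, 3.96, 5.03 and 4.57 FPKM in the experimental libraries of passage 1, against 3.54, 3.64 and 3.29 FPKM in the controls. All 4 experimental libraries lay above the controls, the first of them by a narrow margin. The means were 4.32 ± 0.592 FPKM in experimental cells (SD, n = 4) and 3.49 ± 0.178 FPKM in control cells (SD, n = 3). The fitted log2 difference was 0.24 ± 0.09 (SE; 95% interval 0.03 to 0.45), a 1.18-fold difference, with an adjusted p of 0.0798 by limma. At passage 6 Zeb1 was at 2.68, 2.68 and 3.14 FPKM in experimental cells, against 3.10, 2.87 and 3.06 FPKM in control cells, and the groups overlapped. The difference there was -0.07 (95% interval -0.24 to 0.11, adjusted p = 0.543, limma). The passage 6 difference minus that of passage 1 was -0.31 ± 0.12 (SE, adjusted p = 0.107, limma).

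Transcripts of colon epithelium, a tissue other than that of this line, differed between the same groups at passage 1. The 20 colon markers summed to 180, 154, 7.84 and 84.4 FPKM in experimental libraries 1 to 4, against 449, 207 and 210 FPKM in the controls, and 8 of the 20 were at 0 in experimental library 3, where Zeb1 was highest. Among the controls, library 1 had the most colon transcripts, and its Zeb1 value lay between those of the other two. The groups did not overlap in this sum (exact two-sided permutation p = 0.0571, the smallest that 4 against 3 libraries allow). With the colon and cartilage marker sums as covariates, the Zeb1 difference was 0.08 with an adjusted p of 0.462. Since the colon sum separates the groups completely, the part of colon RNA and that of the treatment cannot be told apart in this fit. The adjusted p of Zeb1 passed 0.05 in 4 of 20 alternative fits, among them the fit without experimental library 1 (0.0395), and ranged from 0.0280 to 0.462.

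Zeb2 (ENSMUSG00000026872, GRCm38 chr2:44983632-45117395, minus strand) encodes the second ZEB repressor, which the neural crest and the developing nervous system require. Its FPKM were 4.10, 4.92, 4.41 and 4.07 in experimental cells of passage 1, against 4.05, 3.98 and 3.86 in control cells. Every experimental library lay above every control, with the closest pair 4.07 and 4.05. The log2 difference was 0.11 ± 0.07 (SE; 95% interval -0.04 to 0.27, adjusted p = 0.237, limma), and no alternative fit called it. Zeb1 and Zeb2 were therefore the 2 of 3 tested members whose passage 1 groups did not overlap, both higher in experimental cells, where 15.8% of all tested genes were higher without overlap and 42.6% did not overlap in either direction. At passage 6 Zeb2 was at 2.22, 2.40 and 2.78 FPKM in experimental cells, against 2.69, 2.37 and 2.50 FPKM in control cells. At that passage 17.4% of all tested genes were higher and 24.3% lower without overlap, 41.7% in all, and none of the 3 tested members was. The difference in Zeb2 was -0.02 (95% interval -0.22 to 0.17, adjusted p = 0.862, limma), and its sign turned in 5 of 18 alternative fits. An antisense gene, Zeb2os, lies in the Zeb2 locus at 0.0625 to 0.442 FPKM. The libraries were made with a strand-marking kit, but whether counting used the strand is not stated, so that reads of the pair may be mixed. The same limit applies to Cdh2 and Zeb1, whose loci also hold genes on the opposite strand. These are Gm15485 in Cdh2 (at most 0.224 FPKM) and Gm10125 and Gm16147 in Zeb1 (at most 0.0467 and 0.0833 FPKM).

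Cdh2 (ENSMUSG00000024304, GRCm38 chr18:16588877-16809246, minus strand), the N-cadherin gene, is the junction gene whose gain is the textbook counterpart of E-cadherin loss. It was at 3.14, 3.28, 2.72 and 2.53 FPKM in experimental libraries of passage 1, against 3.13, 2.98 and 3.12 FPKM in controls. Libraries 3 and 4 of the experimental group were the lowest of the 7. The log2 difference was -0.06 (95% interval -0.24 to 0.12, adjusted p = 0.589, limma). In passage 6 the gene was at 3.76, 4.00 and 4.08 FPKM in experimental cells and 3.71, 4.05 and 3.86 FPKM in control cells, a difference of 0.02 (95% interval -0.12 to 0.16, adjusted p = 0.832, limma). The groups overlapped in both passages. The intervals of the 3 genes at both passages therefore reach no further than a log2 difference of 0.45 up or -0.24 down.

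**Figure D2:**
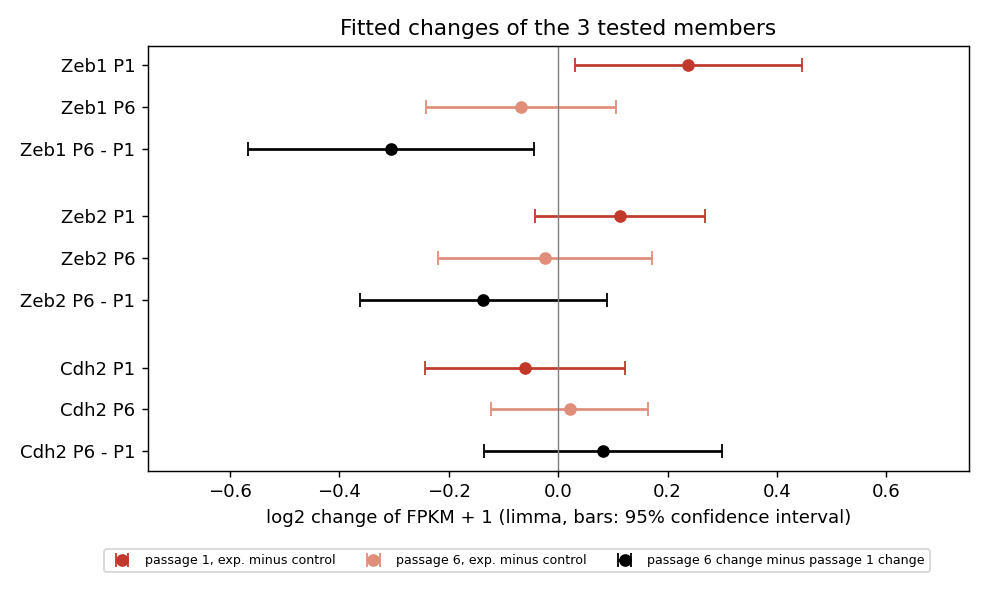
Fitted log2 differences of FPKM + 1 (points) with 95% confidence intervals (bars) for Zeb1, Zeb2 and Cdh2 at passage 1, at passage 6 and for the passage 6 difference minus the passage 1 difference. The Zeb1 interval at passage 1 spans 0.03 to 0.45 and the other 5 intervals within a passage include 0.

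In order of level, these 3 stood well apart from the other members in every group. In passage 1 Zeb2 came first, at 4.38 FPKM in experimental cells and 3.96 FPKM in control cells, followed by Zeb1 and Cdh2. The ranges of Zeb2 and Zeb1 overlapped in experimental cells and did not in control cells. In passage 6 Cdh2 came first, at 3.95 FPKM in experimental cells and 3.87 FPKM in control cells, followed by Zeb1 and then Zeb2, with Zeb1 and Zeb2 overlapping in experimental cells. Passages were deposited as separate tables, so their levels were not compared directly, and the test between passages used only the difference within each. Genes with a group mean of at least 1 FPKM had a median of 6.44 to 7.45 FPKM over the 4 groups, so that all 3 lie below the middle of the genes in use.

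The remaining factors were near the floor of the tables. Snai1 (ENSMUSG00000042821, GRCm38 chr2:167538195-167542814, plus strand), the founding SNAIL repressor, was at 0.232, 0.262, 0.322 and 0.159 FPKM in experimental cells of passage 1, against 0.211, 0.416 and 0.639 FPKM in control cells. Snai1 was at 0.0631, 0.466 and 0.653 FPKM in experimental cells and 0.397, 0.393 and 0.350 FPKM in control cells of passage 6, with overlap in both passages. Snai2 (ENSMUSG00000022676, GRCm38 chr16:14705852-14709385, plus strand), the SLUG repressor of neural crest, lay between 0.0256 and 0.330 FPKM over the 13 libraries.

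Twist1 (ENSMUSG00000035799, GRCm38 chr12:33957671-33959829, plus strand), a basic helix-loop-helix factor that MYCN-driven human neuroblastoma is known to use, was listed at 0 in 4 of 13 libraries. It was at 0.158, 0.0331, 0 and 0 FPKM in experimental cells of passage 1, against 0, 0.0696 and 0.0914 FPKM in control cells. Its passage 6 values were 0, 0.412 and 0.243 FPKM in experimental cells and 0.0744, 0.0362 and 0.171 FPKM in control cells. Prrx1 (ENSMUSG00000026586, GRCm38 chr1:163245119-163313710, minus strand) is a homeobox factor that can drive human neuroblastoma cells into the mesenchymal state. Its FPKM were 0.0953, 0.103, 0.0801 and 0.0129 in experimental cells of passage 1, against 0.0214, 0.153 and 0.112 in control cells. At passage 6 they were 0, 0.344 and 0.414 in experimental cells and 0.0558, 0.0825 and 0.1004 in control cells.

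Of the surface markers, Cd44 (ENSMUSG00000005087, GRCm38 chr2:102811141-102901665, minus strand) was at 0.191, 0.103, 0.0751 and 0.0294 FPKM in experimental cells of passage 1, against 0.213, 0.205 and 0.182 FPKM in control cells. In passage 6 Cd44 was at 0.0343, 0.382 and 0.377 FPKM in experimental cells and 0.0594, 0.214 and 0.205 FPKM in control cells. Cdh11 (ENSMUSG00000031673, GRCm38 chr8:102632095-102785642, minus strand) was at 0.0504, 0.129, 0.0340 and 0.00275 FPKM in experimental cells of passage 1, against 0.00608, 0.104 and 0.0848 FPKM in control cells. At passage 6 its values were 0, 1.20 and 0.982 FPKM in experimental cells and 0.0564, 0.0876 and 0.109 FPKM in control cells. Experimental library 1 was thus the lowest and libraries 2 and 3 the highest of that passage for Cd44 and Cdh11, as for Twist1 and Prrx1. Over all 13 libraries, Prrx1 and Cdh11 were lowest in passage 1 control 1, passage 1 experimental 4 and passage 6 experimental 1. Col1a1 was lowest in the same libraries, at 0.047, 0.462 and 0.265 FPKM against at least 2.24 FPKM elsewhere. The cartilage collagen gene Col2a1 was at 0.0702, 0.320 and 0.179 FPKM in them. It was as low in passage 6 experimental libraries 2 and 3, at 0.304 and 0.325 FPKM, where Prrx1 and Cdh11 were highest. In the remaining libraries Col2a1 was at 11.8 FPKM or more. A link between these values was not tested.

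Passage 6 experimental libraries 2 and 3 stood apart. Their 6 low members summed to between 2.92 and 3.05 FPKM, against 0.229 to 1.36 FPKM in the other 11 libraries. Cdh11, Prrx1, Twist1 and Cd44 were each higher in both than in any other library (Cdh11 0.982 to 1.20 against at most 0.129 FPKM), while Snai1 and Snai2 overlapped with the other 11. The same 2 libraries held transcripts of other tissues. Col1a1, a collagen gene of fibroblasts and bone, was at 82.1 to 90.8 FPKM in them and at most 4.92 FPKM elsewhere. Lum, a matrix gene of fibroblasts, was at 8.58 to 9.19 FPKM in them and at most 0.652 FPKM elsewhere. Other fibroblast markers were plentiful in every library. Fbln1 was at 368 to 378 FPKM in the 2 libraries and 116 to 318 FPKM elsewhere. Pi16 was at 38.2 to 42.2 FPKM against 16.3 to 39.7 FPKM, with overlap. All 12 fibroblast markers summed to 565 and 537 FPKM in the 2 libraries and to at most 360 FPKM elsewhere. Alb, the liver's albumin gene, was at 56.8 to 67.4 FPKM in them and was listed at 0 in the other 11, and the 12 liver markers summed to at most 1.25 FPKM there. Brain markers, 12 in number, summed to 81.3 and 65.8 FPKM in libraries 2 and 3 and to at most 38.4 FPKM elsewhere. Among them Mbp, a myelin gene, was at 9.63 to 13.3 FPKM in the 2 libraries and at most 2.13 FPKM elsewhere. The part of these transcripts in the higher Cdh11, Prrx1, Twist1 and Cd44 values, or in the Zeb2 and Cdh2 values of the same libraries, was not tested.

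**Figure D3:**
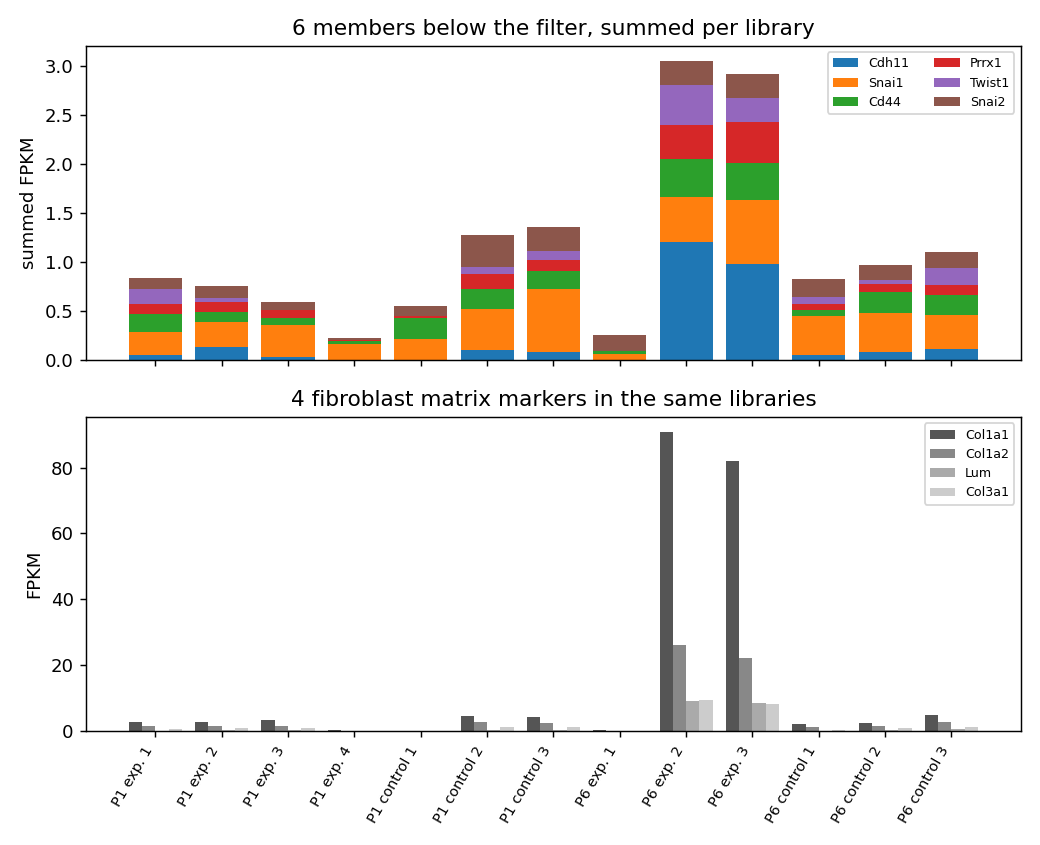
Summed FPKM of the 6 members below the filter in each library, stacked by gene (top), and FPKM of 4 fibroblast matrix markers, Col1a1, Col1a2, Lum and Col3a1 (bottom), experimental before control within each passage. Both panels are highest in passage 6 experimental libraries 2 and 3, at 2.92 to 3.05 FPKM for the members and 82.1 to 90.8 FPKM for Col1a1.

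Many other mesenchymal markers rose at passage 1, where 11.5% of all tested genes did. Of 27 such genes 16 were tested, 11 of them rose in experimental cells and 0 fell, with a median log2 difference of 0.53 against -0.05 over all genes. The 11 were Vim, Fn1, Sparc, Loxl2, Mmp9, Pdgfra, Pdgfrb, Cald1, Tpm1, Tpm2 and Axl. Mmp9, Pdgfra and Axl reached 1 FPKM in experimental libraries alone and so entered the test through the group in which they are higher, which means that the count and the median lean upwards. The 11 genes below the filter were Tnc, Postn, Lox, Mmp2, Mmp3, Mmp14, Thy1, Fap, Tagln, Col3a1 and Col5a1. Without control 1, 7 of the list were called, and without control 1 and experimental 4 together 6 were.

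Loxl2, a lysyl oxidase of the extracellular matrix, averaged 51.8 ± 6.37 FPKM in experimental cells (SD, n = 4) and 26.1 ± 1.42 FPKM in control cells (SD, n = 3), a log2 difference of 0.96 (adjusted p = 0.000435, limma). Axl, a receptor tyrosine kinase linked to mesenchymal states, was at 2.89, 2.63, 4.04 and 3.31 FPKM in experimental cells, against 0.250, 0.444 and 0.313 FPKM in control cells (log2 1.65, adjusted p = 0.000110, limma). Vim, which encodes the intermediate filament vimentin, was far more abundant and rose less, to 292 ± 7.76 FPKM in experimental cells against 263 ± 1.26 FPKM in control cells (log2 0.15, adjusted p = 0.0214, limma). Fn1, the fibronectin gene, averaged 94.1 ± 19.2 FPKM in experimental cells and 56.7 ± 7.49 FPKM in control cells (log2 0.71, adjusted p = 0.0110, limma). Vim and Fn1 were singled out after their values were seen.

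At passage 6, 3 of 20 tested mesenchymal markers rose, Tpm1, Tpm2 and Axl, and 0 fell (median 0.17 against -0.04 over all genes). Among all tested genes 8.98% rose there. That median includes Col1a1 (log2 2.37), Col1a2 (1.59) and Col3a1 (1.28), none of them called. All 3 were highest in experimental libraries 2 and 3, the libraries with the highest fibroblast, liver and brain marker sums. Col3a1, Lox and Tagln passed the filter with 2 experimental libraries and 1 control, so that the median leans upwards here too. Axl was at 3.06, 3.05 and 3.73 FPKM in experimental cells, against 0.725, 0.929 and 0.994 FPKM in control cells (log2 1.18, adjusted p = 0.00141, limma), so that the groups were far apart in both passages. It passed the filter through experimental libraries alone here too. Tpm1, an actin-binding tropomyosin, averaged 11.7 ± 1.15 FPKM in experimental cells and 9.25 ± 0.284 FPKM in control cells (log2 0.30, adjusted p = 0.0300, limma), and was not called without experimental library 2 or without any 1 control. Without experimental library 1, 11 of the list were called, without any other single library 1 was, and with libraries 2 and 3 both left out 5 were.

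**Figure D4:**
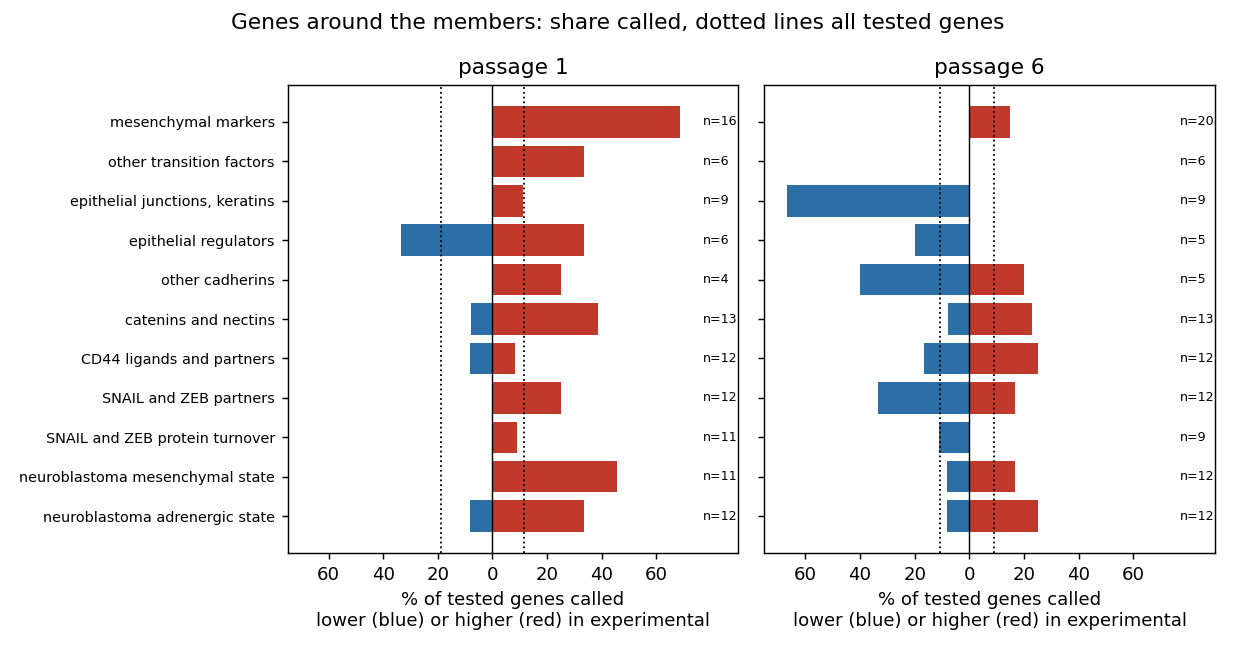
Share of tested genes called higher (red, right) or lower (blue, left) in experimental cells for the 11 lists around the members, at passage 1 and passage 6; n is the number tested and dotted lines are the shares over all tested genes. Mesenchymal markers at passage 1 (11 of 16 higher) and epithelial junction and keratin genes at passage 6 (6 of 9 lower) have the longest bars. Both lists hold genes that passed the filter through the group in which they are higher.

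The calls on each list around the members are to be read beside the shares over all tested genes, 30.4% at passage 1 and 19.8% at passage 6. Some of these calls rested on a few libraries. Passage 1 control 1 and experimental 4 had the lowest cartilage marker sums of that passage, 7.28 and 8.68 FPKM against 30.7 to 48.0 FPKM. With passage 1 control 1 and experimental 4 left out, the calls were 1 in both fits among junction and keratin genes, 2 against 4 among epithelial regulators, 1 against 3 among SNAIL and ZEB partners, 3 against 6 among catenins and nectins and 1 against 2 around CD44. With passage 6 experimental 2 and 3 left out, which leaves 1 experimental library that is assumed to vary like the controls, partners gave 3 calls against 6, and catenins and nectins 4 in both fits.

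Other transition factors gave calls at passage 1 alone. Of 15 listed, 14 were in the tables and 6 were tested. Calls numbered 2 of 6 at passage 1 and 0 of 6 at passage 6, against 30.4% and 19.8% over all tested genes. Sox4 and Sox9 rose at passage 1, and none changed at passage 6. Sox4, a SOX-family factor upstream of mesenchymal genes, was at 55.0, 59.1, 66.2 and 64.7 FPKM in experimental cells, against 41.1, 41.0 and 40.9 FPKM in control cells (log2 0.56, adjusted p = 0.000989, limma). At passage 6 Sox4 averaged 42.8 ± 3.47 FPKM in experimental cells and 45.2 ± 0.895 FPKM in control cells (log2 -0.08, adjusted p = 0.424, limma), and the difference between the passages was -0.64 (adjusted p = 0.00180, limma). Sox9 had an adjusted p of 0.0422 at passage 1 and lost its call in 11 of 21 alternative fits, each of the 3 fits without a control and those without experimental library 1, 3 or 4 among them.

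Proteins that work with SNAIL and ZEB were mostly above the filter, with 12 of 13 tested. Calls numbered 3 of 12 at passage 1 and 6 of 12 at passage 6, against 30.4% and 19.8% over all tested genes. At passage 1 Wtip, Hdac1 and Limd1 rose and none fell. Wtip, a LIM protein of the Ajuba family that human SNAIL recruits, averaged 5.09 ± 0.0834 FPKM in experimental cells and 3.09 ± 0.208 FPKM in control cells (log2 0.57, adjusted p = 0.000409, limma). Hdac1, a histone deacetylase, averaged 38.2 ± 2.54 and 32.6 ± 0.679 FPKM in experimental and control cells (log2 0.22, adjusted p = 0.0226, limma). Hdac1 lost its call without any 1 control. At passage 6 Ctbp1 and Wtip rose, while Suz12, Rcor1, Hdac2 and Ezh2 fell. Suz12, a subunit of the Polycomb methyltransferase complex, averaged 9.60 ± 1.17 FPKM in experimental cells and 12.7 ± 0.349 FPKM in control cells (log2 -0.38, adjusted p = 0.0205, limma). The calls of Suz12 and Wtip at passage 6 were each lost when any 1 control, experimental library 2 or experimental library 3 was left out. Partner calls numbered 1 at passage 1 without any 1 control and 6 without experimental library 2. At passage 6 they numbered 0, 0 and 1 without control 1, 2 and 3, and 2 without experimental library 2 or 3.

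Regulators of SNAIL protein lifetime gave 1 call in each passage, 1 of 11 tested and 1 of 9. Both lie below the shares over all tested genes, 30.4% at passage 1 and 19.8% at passage 6. Fbxl14, a ubiquitin ligase subunit that targets SNAIL, averaged 15.7 ± 0.959 FPKM in experimental cells and 12.8 ± 0.539 FPKM in control cells at passage 1 (log2 0.28, adjusted p = 0.0104, limma), and was not called without control 1. It was the only 1 of 11 tested, and 2 were called without experimental library 1. Siah1a, another ubiquitin ligase, averaged 7.20 ± 0.327 FPKM in experimental cells and 8.79 ± 0.396 FPKM in control cells at passage 6 (log2 -0.26, adjusted p = 0.0245, limma), the only 1 of 9. Its call was lost without any 1 control and without experimental library 2, and 4 genes of the list were called without experimental library 1.

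Junction and keratin genes include Cdh1 and others that SNAIL and ZEB repress. Of 9 tested epithelial junction and keratin genes, 0 fell at passage 1, where the median log2 difference was -1.06, and 6 fell at passage 6 (Cdh1, Epcam, Cldn3, Cldn7, Krt8 and Krt18), with a median of -1.35. Each of the 6 reached 1 FPKM in all 3 controls and in only 1 experimental library of passage 6. They entered the test through the group in which they are higher, so that the count and the median lean downwards. Over all tested genes, 18.9% fell at passage 1 and 10.8% at passage 6. Cdh1, the E-cadherin gene, was at 3.17, 2.14, 0.0453 and 1.04 FPKM in experimental cells of passage 1, against 7.05, 2.44 and 2.98 FPKM in control cells. In passage 6 Cdh1 was at 1.29, 0.0568 and 0.0384 FPKM in experimental cells and 1.86, 3.32 and 3.76 FPKM in control cells (log2 -1.52, adjusted p = 0.0220, limma). Cdh1 was below 0.06 FPKM in passage 1 experimental library 3 and passage 6 experimental libraries 2 and 3, the same 3 libraries in which the 20 colon markers summed to 7.84, 8.51 and 9.12 FPKM. In the other 10 libraries the colon sum was 84.4 to 449 FPKM and Cdh1 was 1.04 to 7.05 FPKM. None of the 6 was called with experimental libraries 2 and 3 left out, nor without control 2, control 3, experimental 2 or experimental 3 singly, and the part of colon RNA in these values was not tested further.

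**Figure D5:**
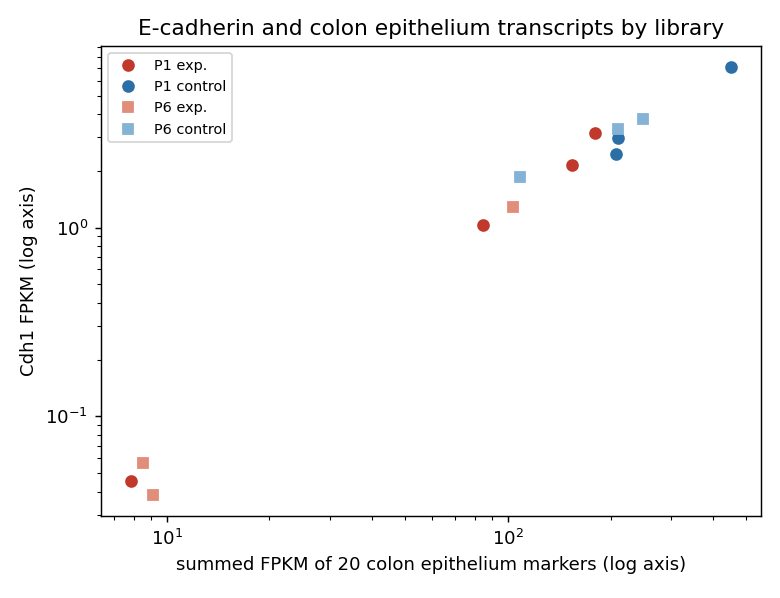
Cdh1 FPKM against the summed FPKM of 20 colon epithelium markers in each of 13 libraries, both on log axes; circles are passage 1, squares passage 6. The 3 libraries with colon sums of 7.84 to 9.12 FPKM have Cdh1 between 0.0384 and 0.0568 FPKM, and the other 10 have Cdh1 of at least 1.04 FPKM.

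Ddr1, a collagen receptor of epithelial cells on the same list, rose at passage 1, to 19.3 ± 0.894 FPKM in experimental cells, against 13.8 ± 0.344 FPKM in control cells (log2 0.45, adjusted p = 0.000779, limma). Krt8, a keratin, was at 10.8, 0.456 and 0.373 FPKM in experimental cells of passage 6, against 11.03, 25.1 and 26.6 FPKM in control cells (log2 -2.84, adjusted p = 0.0498, limma). Epcam, an epithelial adhesion gene, was at 2.73, 0.0226 and 0 FPKM in experimental cells, against 3.63, 5.57 and 7.37 FPKM in control cells (log2 -2.02, adjusted p = 0.0332, limma). Both were lowest in experimental libraries 2 and 3, and neither was called without any 1 control, without experimental 2 or without experimental 3.

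Regulators that hold the epithelial state split in passage 1, where Klf4 and Klf5 rose and Grhl1 and Grhl2 fell among 6 tested. Calls numbered 4 of 6 at passage 1 and 1 of 5 at passage 6, against 30.4% and 19.8% over all tested genes. Klf4, a Krüppel-like factor, was at 11.4, 10.4, 11.4 and 10.2 FPKM in experimental cells, against 6.90, 5.23 and 5.47 FPKM in control cells (log2 0.79, adjusted p = 0.000789, limma). Klf5 averaged 7.90 ± 0.629 FPKM in experimental cells and 5.56 ± 0.606 FPKM in control cells (log2 0.44, adjusted p = 0.00573, limma). At passage 6 only Grhl2, a grainyhead factor that opposes ZEB1, fell among 5 tested, at 2.21 ± 0.174 FPKM in experimental cells and 3.02 ± 0.0487 FPKM in control cells (log2 -0.32, adjusted p = 0.0201, limma). Its call was lost without any 1 control, and 2 of the list were called without experimental library 1. At passage 1 the 4 calls became 2 without any 1 control.

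Among the 21 other cadherins, 4 were tested at passage 1 and 5 at passage 6, and Cdh22 rose in both. Calls numbered 1 of 4 at passage 1 and 3 of 5 at passage 6, against 30.4% and 19.8% over all tested genes. Cdh22, a cadherin of brain, was at 7.02, 5.47, 7.59 and 6.40 FPKM in experimental cells of passage 1, against 3.28, 3.77 and 3.82 FPKM in control cells (log2 0.72, adjusted p = 0.00189, limma). At passage 6 it averaged 7.08 ± 0.526 FPKM in experimental cells and 5.40 ± 0.148 FPKM in control cells (log2 0.33, adjusted p = 0.0149, limma). Cdh1 and Cdh17 fell at passage 6, and Cdh17, an intestinal cadherin that is also 1 of the 20 colon markers, averaged 2.09 ± 0.566 FPKM in experimental cells and 3.71 ± 0.820 FPKM in control cells (log2 -0.61, adjusted p = 0.0465, limma). Neither was called with experimental libraries 2 and 3 left out, or without control 2, control 3, experimental 2 or experimental 3 singly. The 3 cadherin calls of passage 6 became 0 without control 2 or 3 and 1 without experimental 2 or 3.

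The catenins, which tie cadherins to actin, were better represented, with 13 of 15 catenin and nectin genes tested. Calls numbered 6 of 13 at passage 1 and 4 of 13 at passage 6, against 30.4% and 19.8% over all tested genes. At passage 1 Ctnnb1, Ctnna1, Jup, Vcl and Nectin2 rose and Arvcf fell. Ctnnb1, the gene of beta-catenin, averaged 90.1 ± 3.12 FPKM in experimental cells and 72.9 ± 0.631 FPKM in control cells at passage 1 (log2 0.30, adjusted p = 0.00190, limma). At passage 6 it was at 62.2, 60.4 and 61.5 FPKM in experimental cells, against 45.5, 48.9 and 48.7 FPKM in control cells (log2 0.36, adjusted p = 0.00463, limma). Vcl, which encodes the actin linker vinculin, averaged 23.1 ± 5.03 FPKM in experimental cells and 12.8 ± 0.759 FPKM in control cells at passage 1 (log2 0.79, adjusted p = 0.00590, limma). Jup, the gene of plakoglobin, averaged 15.7 ± 3.11 FPKM in experimental cells and 10.4 ± 0.250 FPKM in control cells (log2 0.53, adjusted p = 0.0204, limma) and was not called without any 1 control or without experimental library 4. At passage 6 Nectin1 and Nectin3 rose with Ctnnb1, and Arvcf fell again. Nectin1, an adhesion receptor of the immunoglobulin family, averaged 5.62 ± 0.791 FPKM in experimental cells and 3.97 ± 0.255 FPKM in control cells (log2 0.41, adjusted p = 0.0287, limma). Its call was lost without any 1 control, experimental library 2 or experimental library 3, and 1 gene of the list was called without any 1 control or without experimental library 3.

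Of 19 genes around CD44 (hyaluronan synthases and hydrolases, other ligands, the ezrin family that links CD44 to actin, and proteases that cleave it), 12 were tested. At passage 1 Adam10 rose and Vcan fell, and at passage 6 Hyal2, Msn and Adam10 rose and Hmmr and Vcan fell. The 2 of 12 at passage 1 lie below the 30.4% over all tested genes, and the 5 of 12 at passage 6 stand against 19.8%. Adam10, a sheddase of CD44, averaged 23.2 ± 1.80 FPKM in experimental cells and 17.6 ± 0.371 FPKM in control cells at passage 1 (log2 0.38, adjusted p = 0.00407, limma). At passage 6 it averaged 36.2 ± 4.87 FPKM in experimental cells and 27.3 ± 0.527 FPKM in control cells (log2 0.38, adjusted p = 0.0305, limma), and was not called without any 1 control or without experimental library 3. Vcan, the versican proteoglycan gene, averaged 1.89 ± 0.186 FPKM in experimental cells and 2.45 ± 0.0533 FPKM in control cells at passage 1 (log2 -0.26, adjusted p = 0.0266, limma). That call was lost under 12 of 20 alternatives, all 3 scalings and each of the 3 fits without a control among them. At passage 6 Vcan was at 4.47, 4.26 and 4.97 FPKM in experimental cells, against 6.17, 6.16 and 6.17 FPKM in control cells (log2 -0.37, adjusted p = 0.0107, limma), and was not called without any 1 control. The 2 calls at passage 1 became 1 without any 1 control and without experimental library 1 or 4, and the 5 at passage 6 became 1 without any 1 control and 3 without experimental library 3.

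Factors named for the mesenchymal and the adrenergic state of human neuroblastoma both gave calls, on lists of 11 or 12 tested genes. Over all tested genes 30.4% were called at passage 1 and 19.8% at passage 6. Hand2, a bHLH factor of sympathetic neurons on the adrenergic list, was called in neither passage. It was at 87.7 to 114 FPKM in experimental and 86.0 to 87.6 FPKM in control cells of passage 1. At passage 6 it was at 58.8 to 74.1 and 62.1 to 63.8 FPKM in experimental and control cells. Of 21 mesenchymal-state factors 11 were tested at passage 1, and Wwtr1, Fosl2, Mef2d, Sox9 and Elk4 rose and none fell. Wwtr1, the Hippo pathway co-activator TAZ, was at 10.9, 10.8, 15.7 and 13.5 FPKM in experimental cells, against 5.30, 6.33 and 6.04 FPKM in control cells (log2 0.98, adjusted p = 0.00141, limma). Fosl2, an AP-1 subunit, averaged 9.38 ± 1.24 FPKM in experimental cells and 5.47 ± 0.151 FPKM in control cells (log2 0.68, adjusted p = 0.00173, limma). Of the 12 tested at passage 6, Aebp1 and Creg1 rose and Notch2 fell. Creg1 was at 16.6, 18.8 and 20.7 FPKM in experimental cells, against 11.8, 12.5 and 10.8 FPKM in control cells (log2 0.63, adjusted p = 0.00553, limma). Notch2, a Notch receptor, averaged 6.97 ± 0.741 FPKM in experimental cells and 9.77 ± 0.0866 FPKM in control cells (log2 -0.44, adjusted p = 0.00970, limma).

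Of 19 adrenergic-state factors 12 were tested in each passage. At passage 1 Isl1, Tbx2, Satb1 and Pbx3 rose, and at passage 6 Gata2, Isl1 and Tbx2 rose and Klf7 fell. Isl1, a LIM-homeodomain factor of sympathetic neurons, was at 7.30, 7.85, 5.96 and 7.43 FPKM in experimental cells of passage 1, against 3.28, 3.24 and 3.48 FPKM in control cells (log2 0.90, adjusted p = 0.000376, limma). At passage 6 it was at 3.78, 3.58 and 3.86 FPKM in experimental cells, against 2.49, 2.49 and 2.38 FPKM in control cells (log2 0.46, adjusted p = 0.00475, limma). Tbx2, a T-box factor, averaged 20.3 ± 3.06 FPKM in experimental cells and 15.5 ± 0.944 FPKM in control cells at passage 1 (log2 0.36, adjusted p = 0.0390, limma) and lost its call without any 1 control and without experimental library 1, 2 or 4. Klf7, a Krüppel-like factor, averaged 6.30 ± 0.571 FPKM in experimental cells and 8.61 ± 0.122 FPKM in control cells at passage 6 (log2 -0.40, adjusted p = 0.0100, limma), and was not called without control 2 or control 3. At passage 1, 1 adrenergic-state and 3 mesenchymal-state factors were called without any 1 control, 3 adrenergic-state factors without experimental library 4, and 1 and 2 without control 1 and experimental 4 together. At passage 6, 2, 1 and 1 adrenergic-state factors were called without control 1, 2 and 3.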

How the data were processed

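The authors deposited FPKM, 1 table per passage, with 34857 genes each. The tools in the submitters' processing notes are StringTie, HISAT2, cutadapt, edgeR and DESeq2, and the genome is mm10, all without versions, and how FPKM were scaled between libraries is not given in the sources used here. Per the labels' protocols, libraries were poly(A)-selected and strand-marked, from RNA with an integrity number above 7. Left out was 1 gene with an empty cell, 34731 genes matched a symbol, and all 13 columns were used. Depth is unknown, so precision comes from the spread between libraries.

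For each passage, limma 3.58.1 (R 4.3.3) was fitted to log2(FPKM + 1) with an intensity trend, over genes reaching 1 FPKM in 3 or more libraries, with p adjusted over all of them. The difference between passages was a contrast over 13 libraries. The fit was tested on simulated data. The members and lists were chosen with earlier results of these data known. Up to 2 called genes per list and passage, those with the largest change and a mean of at least 1 FPKM, were named with values by rule, or the highest expressed where none was called. Other called genes are named only. The result of 1 listed gene is not reported here. Values of Vim, Fn1, Ctnnb1 and Cdh1 at passage 1, of Cdh22 at passage 6 and of Hand2 were added after they were seen. So were the per-library values of the members below the filter and those of the tissue markers. No gene was named as most like a member, since no member was called. Replicate numbers were not treated as pairs in the main fits.

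Alternatives were pseudocounts of 0.1 and 5, filters at 5 FPKM and none, 3 scalings, no trend, robust settings, array weights, a replicate block, 1 fit over both passages, marker sums as covariates, and leaving out libraries.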

Additional observations from a re-analysis of the deposited data

Results flagged for a closer look

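The passage 6 difference minus the passage 1 difference was looked up for the 3 tested members and for the 32 other genes named with values by rule. It passed the test over both passages (limma, adjusted over all tested genes) for 13 of the 32 and for none of the 3 members. In 11 of the 13 the later difference was the lower. These were Wwtr1 (-1.003, adjusted p = 0.00488), Klf4 (-0.95, 0.00160), Loxl2 (-0.85, 0.00124), Fosl2 (-0.72, 0.00239) and Sox4 (-0.64, 0.00180), with Vcl (-0.63, 0.0368), Klf7 (-0.61, 0.0101) and Klf5 (-0.54, 0.0158). The last 3 were Isl1 (-0.45, 0.0161), Tpm1 (-0.37, 0.0366) and Ddr1 (-0.33, 0.00858). Of these, Isl1 and Tpm1 were called higher in both passages, Klf7 was called lower at passage 6 alone, and the other 8 were called higher at passage 1 alone. In Nectin1 (0.43, adjusted p = 0.0230) and Creg1 (0.44, 0.0228) the later difference was the higher. The genes were named because they were called in a passage, so that a smaller difference in the other is not independent of that choice.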

How the results depend on the processing

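No member was called at passage 6 or between the passages under any alternative run, and Zeb2 and Cdh2 were not called at passage 1 under any. Zeb1 at passage 1 was called, as 1 member changed, with quantile normalization, array weights and 1 fit over both passages, and leaving out single libraries gave 0 to 1 changed members, the 1 without experimental library 1. Some differences near 0 turned sign. At passage 1 Cdh2 was 0.0085 with quantile normalization and 0.036 with marker covariates. At passage 6 Zeb2 was 0.0043 with median-of-ratios scaling, 0.016 with quantile normalization, 0.024 with array weights, and 0.0098 and 0.027 without control 1 and without experimental 1, the highest of its fits without a library (lowest -0.088). Cdh2 at passage 6 was -0.034 without experimental 2 and 3 together, and -0.0033 to 0.049 over fits without a single library. Sox4 at passage 6 was 0.010 without experimental 2 and 3. The causes were not tested.

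Counts over all genes moved more. The 3792 genes changed at passage 1 became 976 without control 1 and experimental 4, and 2053 to 4069 without single libraries, lowest without control 2, with 2083 and 2087 without controls 1 and 3. The 2462 at passage 6 became 1286 without the filter and 670 to 4257 without single libraries, highest without experimental 1, with 767, 670 and 749 without controls 1, 2 and 3 and 1582 without experimental 3. The 1918 between passages became 1185 without the filter, 3192 with array weights and 1160 to 2547 without single libraries. Deviations of same-numbered libraries correlated at -0.192 to 0.239 at passage 1 and -0.066 to 0.033 at passage 6. Those of differently numbered libraries correlated at -0.354 to 0.263 and -0.092 to 0.106. So few values cannot decide whether replicate numbers pair the libraries. With the replicate block, 1813 genes were called at passage 1, 1438 at passage 6 and 728 between passages, and no member was. Depth is unknown, so it cannot be said how many reads lie behind the 6 members below 1 FPKM.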
